A study of Mus musculus with 3 samples.

Results

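Keratins are the proteins of the intermediate filaments of epithelial cells, and the unit of such a filament is a pair of 1 type I and 1 type II keratin. The keratin genes were taken as all gene symbols made of Krt, a number and at most 1 lower-case letter, which gave 53 of the 31053 genes counted. Their transcripts were followed in the 3468 of 26008 kept cells that carry cluster label 2, 3, 4 or 5, the epithelial cells of the ocular surface, and in the other labels only for comparison. In the paper's naming of these clusters label 2 stands for limbal stem cells, label 3 for conjunctival epithelium, label 4 for limbal epithelium and label 5 for corneal epithelium.

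Single cells of the mouse iridocorneal angle and limbus, the rim at which cornea, sclera and iris meet, were counted in 3 droplet libraries at 6 weeks of age. A pair of libraries came from Angpt1 flox/flox mice (control replicates 1 and 2) and 1 from Angpt1 flox/flox;Wnt1Cre+ mice (*Angpt1*ΔNC), all of Mixed strain after 2 generations of crosses to albino ICR mice. Each library pooled 4 to 6 eyes of 2 to 3 animals, male and female per the sample notes, so cells of 1 library are not independent animals. The p-values rest on the spread between pooled libraries, which the test estimates by sharing information over all genes of a label. *Wnt1*-Cre acts in the neural crest and the stromal cells that descend from it, and the surface epithelium, which comes from the ectoderm, is not its target. How the epithelium of the *Angpt1*ΔNC eyes compares with that of control eyes is therefore a question about cells that were not themselves targeted.

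In an epithelium of many layers, *Krt5* and *Krt14* form the filaments of the basal cells, and other pairs replace or join them as cells differentiate. At the ocular surface *Krt12* marks the corneal epithelium, *Krt15* the basal cells of the limbus, where the corneal stem cells lie, and *Krt4*, *Krt13* and *Krt19* the conjunctiva. *Krt6a*, *Krt6b*, *Krt16* and *Krt17* are raised in wounded or stressed epithelia, and *Krt8* and *Krt18* form the filaments of simple epithelia.

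The kept cells held 76981606 counts of unique molecular identifiers (UMIs) in control replicate 1 (9076 cells), 80346829 in control replicate 2 (10160 cells) and 66484181 in *Angpt1*ΔNC (6772 cells). Values of the 3 libraries are given in this order throughout. Label 2 held 56, 41 and 69 cells, label 3 held 98, 100 and 192, label 4 held 414, 507 and 641, and label 5 held 575, 505 and 270. Epithelial cells were deep, with medians of 26906.5, 23002 and 26680 UMIs in label 2, 21944, 16445 and 20683 in label 3, 14480.5, 12359 and 14092 in label 4 and 21528, 18747 and 20189 in label 5. The control libraries shared 25 barcodes between them, control replicate 1 and *Angpt1*ΔNC shared 14, and control replicate 2 and *Angpt1*ΔNC shared 13, and in each of the 3 pairs 1 shared barcode had the same label on both sides. *Angpt1*, the deleted gene, had 0, 3 and 0 UMIs in label 2, no UMI in label 3, 2, 1 and 0 in label 4 and 1, 4 and 0 in label 5, so in these cells it says little about the labels.

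The transcripts of the pools differed by sex, and showed no female cells in labels 2 to 5 of the controls. *Xist* had no UMI in labels 2 to 5 of either control, whereas in *Angpt1*ΔNC it had 1988, 2689, 6432 and 4769 UMIs in labels 2, 3, 4 and 5, with a UMI in 82.6%, 50.5%, 57.3% and 58.1% of the cells. Genotype and sex cannot be told apart in the full libraries, and each comparison was therefore repeated in male-typed cells, those with a UMI of *Ddx3y*, *Eif2s3y*, *Uty* or *Kdm5d* and none of *Xist*. *Angpt1*ΔNC held 12 such cells in label 2, 82 in label 3, 219 in label 4 and 96 in label 5.

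Corneal, conjunctival and cell cycle markers were highest under labels 5, 3 and 2, and limbal markers did not single out a label. The 6 corneal markers together made up 334, 276 and 233 UMIs per 10,000 in label 5 and at most 48.1 in labels 2, 3 and 4. The 6 conjunctival markers made up 39.3, 24.5 and 25.9 in label 3, and the 6 limbal markers, *Krt14* and *Krt15* among them, made up 222, 250.5 and 239 in label 3, 217, 245 and 205 in label 4, 165, 163 and 180.0 in label 2 and 101, 117 and 133 in label 5. The 7 cell cycle genes made up 13.99, 15.2 and 9.96 in label 2 and at most 1.59 in the other 3 labels. Label 2 was thus set apart by markers of dividing cells. Its limbal markers were lower than those of labels 3 and 4 in each library, so these markers do not bear out the name limbal stem cells. Since 23 of the 53 keratins were among the genes used to integrate and cluster these cells, differences between labels are a description and were not tested. All 13 keratins called between genotypes below are among these 23. They thus also helped to decide which cells of each library fell in a label, and the part of this in the calls was not tested.

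Keratins took up a few percent of all UMIs in the epithelial labels. Their share was 2.601%, 2.38% and 3.08% in label 2, 3.63%, 4.29% and 4.35% in label 3, 2.72%, 2.51% and 2.54% in label 4 and 3.92%, 3.38% and 3.97% in label 5. The order of the labels was not the same in all libraries, as label 5 was above label 3 in control replicate 1 and below it in control replicate 2 and *Angpt1*ΔNC. Cells of 1 label also differed, and in label 3 the 10th percentile of cells lay at 1.75%, 2.65% and 2.39% and the 90th at 5.79%, 6.19% and 6.43%. In immune cells (labels 22 to 25), taken as background, the share was 0.0126%, 0.0109% and 0.0164%, which includes the *Krt83* of label 22 described further on. Only label 1, the retinal pigment epithelium, also stood above this level by more than 10 times in every library, with 0.26%, 0.309% and 0.317%.

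A few genes held most of these transcripts. The 5 most abundant keratins took between 70.3% (label 3) and 93.98% (label 5) of the keratin UMIs of a label and library, and between 26 and 36 of the 53 keratins had any UMI there. Over all kept cells *Krt14* had 617426 UMIs, *Krt12* 549678, *Krt16* 256475, *Krt17* 252496, *Krt5* 219473 and *Krt15* 209546, and 4 keratins had none. A level of at least 1 UMI per 10,000 in all 3 libraries was reached by 10 keratins in label 2, 14 in label 3, 10 in label 4 and 7 in label 5. Levels are means over cells of the UMIs per 10,000 UMIs of the cell, and a molecule counts once whatever the length of its transcript. Of the 53 keratins 19 are named here, 14 by level in labels 2 to 5, 4 only by the genotype test and 1 by its level in another label. Among the 34 others the highest level was 0.352, that of *Krt10* in label 3.

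Although filaments pair the types in equal numbers, type I transcripts were in excess. The ratio of type I to type II UMIs was 4.42, 4.66 and 3.93 in label 2, 2.83, 2.99 and 2.49 in label 3, 6.097, 6.85 and 5.903 in label 4 and 5.07, 5.55 and 4.61 in label 5. It was highest in label 4 and lowest in label 3 within each library, and in every label *Angpt1*ΔNC had the lowest ratio of the 3 libraries.

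The keratins lie in a pair of clusters. In build GRCm38 (GENCODE M21), 27 type I genes fall within chr11:99232761-100269871, all on the minus strand, and the 25 type II genes within chr15:101347444-102004482, 22 of them on the minus strand. *Krt18* (chr15:102028180-102032027, plus strand) is the single type I gene beside the type II cluster, 23697 bases from its partner *Krt8* (chr15:101996698-102004482). Other genes used together also lie side by side: *Krt13* (chr11:100117327-100121566), *Krt15* (chr11:100131758-100135928) and *Krt19* (chr11:100140810-100148665) follow each other with gaps of 10191 and 4881 bases. *Krt16* (chr11:100246091-100248902), *Krt17* (chr11:100256217-100261029) and *Krt42* (chr11:100262882-100269871) are adjacent in the same cluster, which also holds *Krt14* (chr11:100203162-100207548), *Krt12* (chr11:99415666-99422259) and *Krt23* (chr11:99477974-99493137). In the type II cluster *Krt6b* (chr15:101676023-101680287), *Krt6a* (chr15:101689910-101694307) and *Krt5* (chr15:101707070-101712898) are neighbours, 9622 and 12762 bases apart. The remaining named genes there are *Krt80* (chr15:101347444-101370162), *Krt7* (chr15:101411043-101430313, plus strand), *Krt83* (chr15:101485130-101491512), *Krt75* (chr15:101563345-101573904) and *Krt4* (chr15:101918535-101924735).

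**Figure D1:**
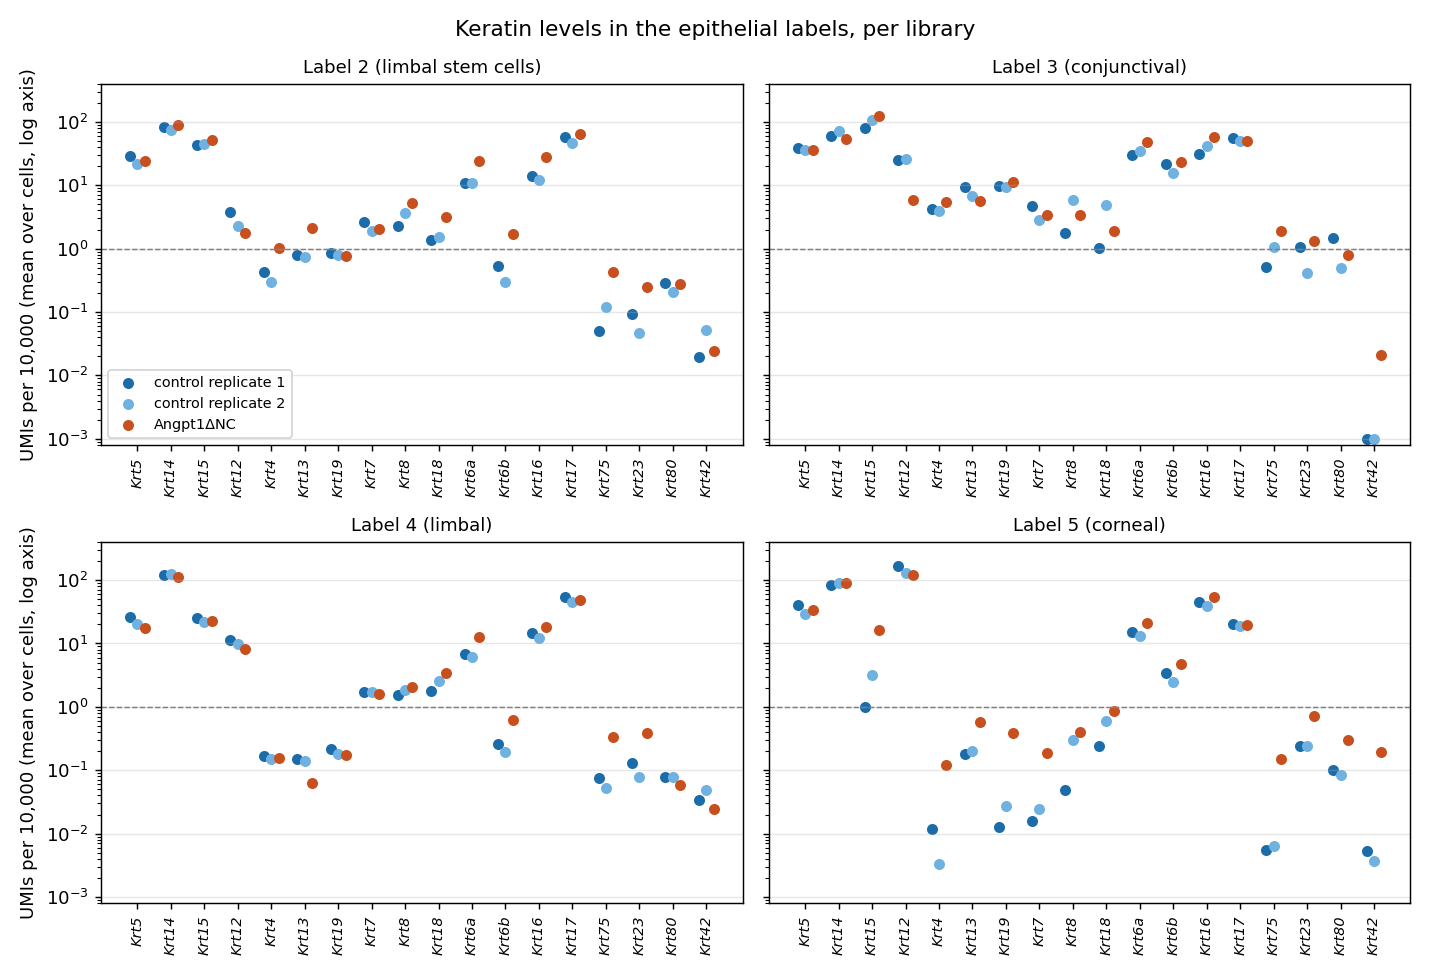
Mean level of 18 named keratins (UMIs per 10,000 UMIs of the cell, log axis) in labels 2 to 5, with 1 point for each library and a dashed line at 1 per 10,000. Levels of 0 are drawn at the lower edge; *Krt14* and *Krt5* were high in all 4 labels, *Krt12* was the highest keratin of label 5, and *Krt4* and *Krt7* were lowest there in each library.

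The basal pair was present in all 4 labels. *Krt14* (type I) was at 82.9, 74.2 and 88.2 UMIs per 10,000 in label 2, 59.8, 72.1 and 53.4 in label 3, 119.9, 126 and 110.0 in label 4 and 82.9, 89.99 and 89.3 in label 5. Label 4 was the highest and label 3 the lowest in each library. *Krt5* (type II) was at 28.6, 21.3 and 24.2 in label 2, 38.9, 35.7 and 35.9 in label 3, 26.4, 20.3 and 17.5 in label 4 and 40.7, 29.6 and 33.7 in label 5. Its order differed from that of its partner, with labels 3 and 5 above labels 2 and 4 in every library, and its level was below that of *Krt14* in all 4 labels. After thinning each cell to 5000 UMIs, a UMI of *Krt5* was found among *Krt14*-positive cells of label 4 in 100.0%, 99.6% and 99.8%. In immune cells 16.03%, 16.1% and 17.2% had an unthinned UMI of *Krt14* and 6.16%, 4.24% and 6.92% one of *Krt5*, at median depths of 6008, 5873 and 6226 UMIs.

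*Krt15*, the limbal keratin, was highest in label 3 and not in label 4. Its level was 81.1, 108 and 122 in label 3, 42.8, 45.03 and 50.9 in label 2, 25.4, 21.8 and 22.9 in label 4 and 0.978, 3.13 and 16.5 in label 5. The first 3 labels had this order in each library, and label 5 was the lowest in each. In label 5 the libraries differed more than in the other 3 labels.

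*Krt12*, the corneal keratin, had a level of 168, 128 and 122 in label 5, the highest of any keratin there in every library. It was at 25.05, 26.01 and 5.81 in label 3, 11.4, 9.89 and 8.18 in label 4 and 3.78, 2.25 and 1.76 in label 2. Label 5 was thus more than 4 times above each other label in every library. The *Krt12* of label 3 came from part of its cells, since 30, 27 and 21 cells (30.6%, 27% and 10.9%) held at least 10 per 10,000, with mean levels of 79.8, 92.7 and 44.1, and the other cells had 0.906, 1.36 and 1.103. The cells with *Krt12* had *Krt19* at 5.602, 4.601 and 8.06 and *Krt4* at 0.6201, 2.08 and 2.5, and the other cells had *Krt19* at 11.7, 11.3 and 11.5 and *Krt4* at 5.72, 4.61 and 5.87. Both were thus lower in the cells with *Krt12* in each library. *Krt13* was at 14.98, 8.86 and 3.87 in the cells with *Krt12* and 6.704, 6.11 and 5.91 in the others, higher with *Krt12* in both controls and lower in *Angpt1*ΔNC.

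The conjunctival keratins were concentrated in label 3. *Krt19* was at 9.81, 9.52 and 11.1 in label 3 and at 0.777 to 0.8503 in label 2, 0.171 to 0.218 in label 4 and 0.01295 to 0.385 in label 5. *Krt13*, a type I keratin of lining epithelia, was at 9.24, 6.85 and 5.69 and its type II partner *Krt4* at 4.16, 3.92 and 5.498 in label 3. Outside label 3 neither passed 2.5 per 10,000 in any library. Within label 3 these genes were uneven, as the tenth of cells with the highest levels held 58.04%, 55.5% and 46.3% of the *Krt19* level. In cells thinned to 5000 UMIs, *Krt19* was found in cells with and without *Krt13* at 58.5% against 51.02% in control replicate 1, 62.5% against 43.1% in control replicate 2 and 80% against 44.1% in *Angpt1*ΔNC. For *Krt13* with and without *Krt4* the shares were 57.1% against 38.2% in control replicate 1, 65.8% against 25% in control replicate 2 and 64% against 31.3% in *Angpt1*ΔNC. *Krt19* and *Krt13* are both type I and do not pair in a filament. The share was higher beside the second gene in all 3 libraries in both cases, and in immune cells at most 0.462% had a UMI of any of the 3 genes.

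The simple keratins were low in the surface epithelium. *Krt7* was at 4.63, 2.83 and 3.36 in label 3, 2.62, 1.89 and 2.06 in label 2 and 1.73, 1.74 and 1.58 in label 4. *Krt8* was at 2.28, 3.71 and 5.28 in label 2, 1.78, 5.81 and 3.39 in label 3 and 1.57, 1.87 and 2.08 in label 4, and its partner *Krt18* at 1.38, 1.52 and 3.21, 1.03, 4.88 and 1.92 and 1.75, 2.55 and 3.42 in these labels. In label 3 the controls themselves differed, with both genes more than 3 times higher in control replicate 2. Thinned cells of label 4 had a UMI of *Krt8* beside *Krt18* and without it in 35.8% against 20.1% in control replicate 1, 42.4% against 25.4% in control replicate 2 and 50.5% against 27.8% in *Angpt1*ΔNC. Immune cells, unthinned at medians of 6008, 5873 and 6226 UMIs against 14480.5, 12359 and 14092 in label 4, had *Krt8* in 0.411%, 0.6897% and 0.769%. Both genes were highest outside the surface epithelium, in label 1, where *Krt18* was at 20.4, 26 and 23.01 and *Krt8* at 5.26, 5.94 and 5.804 in 133, 81 and 17 cells. *Krt18* without much *Krt8* was also found in label 7 (ciliary epithelium) at 2.13, 2.45 and 2.47, in label 19 (smooth muscle) at 1.43, 1.83 and 1.105 and in label TM_2 (corneal endothelium) at 1.61, 2.27 and 1.25. *Krt8* in these 3 labels did not pass 0.413.

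*Krt17*, *Krt16* and *Krt6a* were present above 6 UMIs per 10,000 in all 4 labels of both genotypes, and *Krt6b* was not. *Krt17* was at 56.6, 46.7 and 64.2 in label 2, 55.1, 50.6 and 48.97 in label 3, 54.6, 44.5 and 47.95 in label 4 and 20.2, 19.2 and 19.4 in label 5, the lowest of the 4 in each library. *Krt16* was at 31.1, 42.01 and 57.2 in label 3 and 44.8, 38.4 and 54.9 in label 5, and below 30 in labels 2 and 4. Its type II partner *Krt6a* was at 30.4, 34.1 and 47.3 in label 3 and 15.3, 12.98 and 20.9 in label 5. *Krt6b* followed label 3 more closely, at 21.9, 15.8 and 23.4 there against 3.44, 2.42 and 4.77 in label 5 and under 2 in labels 2 and 4. In thinned cells of label 4 *Krt6a* was found beside *Krt16* and without it in 72.2% against 49.3% in control replicate 1, 69.4% against 47.8% in control replicate 2 and 82.5% against 52.2% in *Angpt1*ΔNC, and in unthinned immune cells in 2.603%, 1.97% and 5.08%. Transcript ends of *Krt14*, *Krt16* and *Krt17* share sequence: of the 50-base stretches in their last 500 bases, 9.53% for *Krt14*, 16.9% for *Krt16* and 9.53% for *Krt17* also occur in another gene (*Krt14*, *Krt16*, *Krt17* or the predicted gene *Gm11597*), so part of their counts is uncertain. *Krt6a* and *Krt6b* share none with another gene, and *Krt18* shares 1.11% with *Gm5200*.

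Of the other named keratins, *Krt75*, a keratin of the hair follicle's companion layer, reached 0.514, 1.07 and 1.904 in label 3 and *Krt23* 1.08, 0.4097 and 1.32. *Krt80* was at 1.48, 0.499 and 0.807 there, and *Krt42* did not pass 0.2 in any of the 4 labels. *Krt83*, known as a hair keratin, was found in label 22 (B and T cells), where it was at 2.65, 2.09 and 2.92 in 12, 23 and 31 positive cells, 13.5, 17.3 and 29.5 percent of the label. Its UMIs over all kept cells came to 308, and in labels 1, 7, 19 and TM_2 no library passed 0.0375.

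Genotypes were compared within each label on UMIs summed per library, so fold changes need not follow the levels, which are means over cells. In label 2, the stress keratins *Krt6a*, *Krt6b* and *Krt16* were higher in *Angpt1*ΔNC, and *Krt17* did not pass. The conjunctival *Krt4* and *Krt13* were higher in all cells but not in male-typed cells, and *Krt19* did not pass. Of 19 keratins tested 8 rose and none fell, which are *Krt6a*, *Krt6b*, *Krt16*, *Krt4*, *Krt13*, *Krt18*, *Krt75* and *Krt23*, against 2.18% of the 8356 genes tested that edgeR called in either direction. The median log2 fold change of the tested keratins was 0.52, and that of all genes -0.03. The basal pair did not pass the test (*Krt5* 0.15 ± 0.19, *Krt14* 0.25 ± 0.15).

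*Krt6a* was at 10.8, 10.8 and 24.4 UMIs per 10,000 in label 2 (log2 fold change 1.34 ± 0.16, edgeR adjusted p = 0.000461), so *Angpt1*ΔNC lay above both controls, which were equal to 3 digits. *Krt16* was at 13.99, 12.04 and 27.5 (log2 fold change 1.17 ± 0.16, edgeR adjusted p = 0.00119), and *Krt6b* at 0.534, 0.296 and 1.72 (log2 fold change 2.31 ± 0.26, edgeR adjusted p = 0.000334). For all 3 genes the controls lay closer to each other than to *Angpt1*ΔNC. *Krt17*, at 56.6, 46.7 and 64.2, did not pass (log2 fold change 0.52 ± 0.16, edgeR adjusted p = 0.125). *Krt13* was at 0.805, 0.735 and 2.15 (log2 fold change 1.56 ± 0.23, edgeR adjusted p = 0.00248) and *Krt4* at 0.424, 0.2997 and 1.02 (log2 fold change 1.45 ± 0.32, edgeR adjusted p = 0.0313), while *Krt19*, the other conjunctival keratin, was at 0.8503, 0.8003 and 0.777 and did not pass (log2 fold change 0.02 ± 0.26, edgeR adjusted p = 0.988). *Krt18* was at 1.38, 1.52 and 3.21 (log2 fold change 1.16 ± 0.21, edgeR adjusted p = 0.0104), and its partner *Krt8* at 2.28, 3.71 and 5.28 did not pass (log2 fold change 0.67 ± 0.29, edgeR adjusted p = 0.297). *Krt75* (7, 13 and 80 UMIs) rose by 2.32 ± 0.45 and *Krt23* (15, 5 and 57 UMIs) by 1.901 ± 0.42 on the log2 scale, with edgeR adjusted p = 0.0151 and 0.0323. *Krt12*, at 3.78, 2.25 and 1.76, did not pass (log2 fold change -0.93 ± 0.26, edgeR adjusted p = 0.0852). It passed in male-typed cells (-1.41, edgeR adjusted p = 0.0358), in cells with at least 1% keratin UMIs (-1.02, adjusted p = 0.00623) and without a filter on low counts (-0.904, adjusted p = 0.00598).

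These calls rest on 41 to 69 cells a library. In male-typed cells, 12 of them in *Angpt1*ΔNC, *Krt6a*, *Krt6b* and *Krt16* passed, *Krt13* turned to -0.47 (edgeR adjusted p = 0.593), and *Krt4* (0.69, adjusted p = 0.437), *Krt18* (0.897, 0.089), *Krt23* (1.37, 0.496) and *Krt75* (2.39, 0.0651) did not pass. DESeq2 did not call *Krt4* (adjusted p = 0.167) and gave no adjusted p for *Krt23* and *Krt75*. With equal cells per library *Krt75* was at 1.35 (edgeR adjusted p = 0.198) and *Krt4* at 2.13. Without control replicate 1 *Krt75* was at 1.62, *Krt4* at 2.01 and *Krt23* at 2.496, and without control replicate 2 *Krt75* was at 3.16.

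Label 2 of control replicate 2 also held 6 cells with under 1% keratin UMIs (14.6% of 41), against 3 in control replicate 1 (5.36%) and 3 in *Angpt1*ΔNC (4.35%). These 6 cells had *Pmel* at 25.7, *Dct* at 14.97 and *Cdh5* at 5.21 per 10,000. Over the whole label the 4 endothelial markers made up 0.591, 3.14 and 0.0458, led by *Cldn5* in control replicate 2 and *Egfl7* in the other libraries, with *Cldn5* at 0 in control replicate 1 and *Cdh5* at 0 in *Angpt1*ΔNC. The 6 markers of pigmented cells made up 0.739, 6.499 and 0.385, led by *Ttr* in control replicate 1 and *Pmel* in the others, with *Rpe65* at 0 in control replicate 2 and both *Rpe65* and *Rgr* at 0 in *Angpt1*ΔNC. In cells with at least 1% keratin UMIs, a limit set after these cells were seen, 9 of 18 keratins were called, the 8 above and *Krt12*. The share of all genes called there was 4.33% of 8043. The 12 dissociation stress genes, all with UMIs in each library and led by *Ier3*, made up 46.9, 47.1 and 28.7, lower in *Angpt1*ΔNC, and the 7 cell cycle genes 13.99, 15.2 and 9.96, led by *Ube2c*. The 6 stroma markers, all with UMIs in each library and led by *Dcn*, made up 5.898, 4.52 and 3.08, lowest in *Angpt1*ΔNC. The part of these genes in the result was not tested.

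In label 4, the stress keratins except *Krt17* were again higher in *Angpt1*ΔNC, and so were *Krt18*, *Krt23* and *Krt75*. Of 21 keratins tested 6 rose and 1, *Krt13*, fell, against 11.9% of the 10521 genes that edgeR called. This background is more than 5 times that of label 2, but a given ratio of fold change to SE did not give the same p in each label. At an unadjusted p under 0.05 the shares of genes were 14.4%, 5.82%, 22.6% and 18.5% in labels 2, 3, 4 and 5. Counts of calls thus do not rank the labels. The median log2 fold change was 0.17 over the keratins and -0.01 over all genes.

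*Krt6a* was at 6.77, 6.11 and 12.5 in label 4 (log2 fold change 1.15 ± 0.18, edgeR adjusted p = 2e-08) and *Krt6b* at 0.259, 0.194 and 0.624 (log2 fold change 1.78 ± 0.19, edgeR adjusted p = 2.9e-19). *Krt16* was at 14.7, 12.1 and 17.9 (log2 fold change 0.66 ± 0.20, edgeR adjusted p = 0.0126). In all 3 genes *Angpt1*ΔNC was above both controls. *Krt17* was at 54.6, 44.5 and 47.95, with *Angpt1*ΔNC between the controls (log2 fold change 0.17 ± 0.25, edgeR adjusted p = 0.77). *Krt75* was at 0.0744, 0.0522 and 0.338 (log2 fold change 2.62 ± 0.24, edgeR adjusted p = 5.94e-26) and *Krt23* at 0.13, 0.0772 and 0.389 (log2 fold change 2.23 ± 0.22, edgeR adjusted p = 4.06e-22), from 49, 34 and 373 and 77, 52 and 443 UMIs. Both were under 0.5 per 10,000 in every library, so the folds are large and the levels low. *Krt18* was at 1.75, 2.55 and 3.42 (log2 fold change 0.83 ± 0.16, edgeR adjusted p = 7.65e-06), and *Krt8* at 1.57, 1.87 and 2.08 did not pass (log2 fold change 0.43 ± 0.16, edgeR adjusted p = 0.0582). *Krt13* was at 0.148, 0.139 and 0.0629 (log2 fold change -1.09 ± 0.27, edgeR adjusted p = 0.000977), with 107, 111 and 75 UMIs, and the tenth of cells with the highest levels held all of its level in each library. Of the 7 most abundant keratins of the label *Krt16* and *Krt6a* passed and the others did not, with *Krt17* as given, *Krt14* at -0.02 ± 0.29, *Krt5* at -0.25 ± 0.22, *Krt15* at 0.09 ± 0.22 and *Krt12* at -0.28 ± 0.19 (log2 fold change ± SE). In male-typed cells *Krt12* passed (-0.61, edgeR adjusted p = 0.0326) and *Krt6b* was at 2.41.

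Without the filter on low counts edgeR called none of the 16735 genes of label 4, 8 keratins having an unadjusted p under 0.05, where DESeq2 called 5 keratins. With equal cells per library *Krt13* (edgeR adjusted p = 0.126), *Krt16* (0.0769) and *Krt18* (0.0874) did not pass, and DESeq2 did not call *Krt13* (adjusted p = 0.443) or *Krt18* (0.08). The dissociation stress genes made up 71.9, 67.3 and 36.5, all 12 with UMIs and led by *Ier3*, and their part in the result was not tested.

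In label 5, conjunctival keratins, *Krt15* and *Krt7* were higher in *Angpt1*ΔNC, while the corneal and basal keratins did not pass. Of 25 keratins tested 10 rose and none fell, against 2.23% of the 11365 genes that edgeR called. The 10 include *Krt42*, which passed the filter on low counts only through *Angpt1*ΔNC. Of the 10 only *Krt15* and *Krt6b* passed 1 per 10,000 in *Angpt1*ΔNC. The median log2 fold change was 0.89 over the keratins and -0.02 over all genes.

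*Krt15* was at 0.978, 3.13 and 16.5 in label 5, from 1460, 3247 and 13770 UMIs (log2 fold change 3.36 ± 0.51, edgeR adjusted p = 0.0271). *Angpt1*ΔNC was the highest, and the controls differed 3-fold. Cells with at least 10 *Krt15* UMIs per 10,000 numbered 17 (2.96%, exact Clopper-Pearson 95% interval 1.73 to 4.69), 51 (10.1%, 7.61 to 13.1) and 92 (34.1%, 28.4 to 40.1), intervals that cover counting error only. These cells were not without the corneal keratin, as their *Krt12* was at 145, 83.4 and 99 against 169, 133 and 134 in the other cells. In *Angpt1*ΔNC they had *Krt19* at 1.001, *Krt4* at 0.344, *Krt42* at 0.567 and *Krt75* at 0.425, against 0.0664, 0.00739, 0.005699 and 0.0117 in the other cells of the label, whereas *Krt23* was lower in them (0.608 against 0.789). In the controls *Krt19* and *Krt4* were also higher in these cells, while *Krt42* in control replicate 2 and *Krt75* in control replicate 1 had no UMI in them. At least 1 UMI of *Krt15* was found in 23.7%, 43.6% and 77.4% of the cells of label 5. After thinning to 5000 UMIs, which left out 13, 6 and 7 cells, the share was 12.3%, 31.1% and 65.02%. Immune cells had a UMI of *Krt15* in 2.47%, 2.76% and 6.31%, without thinning and at medians of 6008, 5873 and 6226 UMIs against 21528, 18747 and 20189 in label 5.

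*Krt19* was at 0.01295, 0.0275 and 0.385 in label 5 (log2 fold change 4.01 ± 0.27, edgeR adjusted p = 0.00266) and *Krt4* at 0.0118, 0.00334 and 0.122 (log2 fold change 4.14 ± 0.40, edgeR adjusted p = 0.00686). *Krt13* was at 0.1802, 0.205 and 0.569 (log2 fold change 1.504 ± 0.23, edgeR adjusted p = 0.0271). For these 3 conjunctival keratins *Angpt1*ΔNC was above both controls and below its own level in label 3. *Krt7* was at 0.0161, 0.0245 and 0.187 (log2 fold change 3.58 ± 0.47, edgeR adjusted p = 0.0186), and *Krt8* and *Krt18* did not pass (1.49 ± 0.67 and 1.02 ± 0.40). *Krt6b* was at 3.44, 2.42 and 4.77 (log2 fold change 0.89 ± 0.16, edgeR adjusted p = 0.0423), and *Krt6a* at 15.3, 12.98 and 20.9 did not pass (log2 fold change 0.75 ± 0.17, edgeR adjusted p = 0.0889), although DESeq2 called it (adjusted p = 0.0292). *Krt23* was at 0.244, 0.244 and 0.727 (log2 fold change 1.61 ± 0.18, edgeR adjusted p = 0.00967) and *Krt80*, a keratin of differentiating cells, at 0.102, 0.08504 and 0.298 (log2 fold change 1.400 ± 0.18, edgeR adjusted p = 0.0174). *Krt75* had 11, 10 and 61 UMIs (log2 fold change 3.42 ± 0.39, edgeR adjusted p = 0.0109). *Krt42* had 10, 5 and 82 UMIs (log2 fold change 4.34 ± 0.39, edgeR adjusted p = 0.00629), and those of *Angpt1*ΔNC came from 5 cells. The tenth of the cells of *Angpt1*ΔNC with the highest levels held 99.9% of the level of *Krt19*, 97.5% of that of *Krt4* and 79.7% of that of *Krt7*. *Krt12* (-0.09 ± 0.25), *Krt14* (0.11 ± 0.22), *Krt5* (0.09 ± 0.22), *Krt16* (0.62 ± 0.20) and *Krt17* (0.14 ± 0.18) did not pass.

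In male-typed cells of label 5 *Krt13*, *Krt15*, *Krt19*, *Krt23* and *Krt4* passed, *Krt19* at 4.78. *Krt42* (1.08, edgeR adjusted p = 0.659), *Krt75* (0.59, 0.811), *Krt7* (2.24, 0.152), *Krt80* (0.66, 0.181) and *Krt6b* (0.34, 0.331) did not. DESeq2 did not call *Krt15* (adjusted p = 0.17), and with equal cells *Krt13* (1.299, edgeR adjusted p = 0.175) and *Krt6b* (0.83, 0.0856) did not pass, *Krt42* was at 3.67 and *Krt8* passed (1.91, adjusted p = 0.0467). Without control replicate 1 the log2 fold change of *Krt7* was 2.94, that of *Krt15* 2.78 and that of *Krt4* 4.89, and without control replicate 2 that of *Krt7* was 4.52 and that of *Krt15* 4.34. With no filter on low counts edgeR called 14 of 41 keratins in label 5, all higher in *Angpt1*ΔNC, against 7.06% of 17133 genes.

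Among the other conjunctival markers, *Agr2* (log2 fold change 2.49 ± 0.38, edgeR adjusted p = 0.0271) and *Muc4* (1.85 ± 0.19, edgeR adjusted p = 0.00837) also rose in label 5, so 5 of the 6 passed. The list as a whole went the other way, at 18.3, 13.01 and 8.78 summed, since its most abundant gene *Aqp5*, which the cornea expresses too, was at 17.9, 12.7 and 7.23 (-0.84 ± 0.22, edgeR adjusted p = 0.113). No member was at 0 in any library. Of 5 goblet cell markers *Agr2* alone had UMIs in label 5, and *Muc5ac*, *Tff3*, *Spdef* and *Gcnt3* were at 0 in all 3 libraries. The 12 dissociation stress genes, led by *Ier3* in control replicate 1, control replicate 2 and *Angpt1*ΔNC, made up 70.5, 65.3 and 43.2. The part of these genes in the result was not tested.

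In label 3 no keratin passed the test. Of 20 keratins tested edgeR called 0, against 0% of 8953 genes, where 521 genes and 1 keratin had an unadjusted p under 0.05. DESeq2 called 26 genes in label 3, 1 of them a keratin. That gene was *Krt12* in both tools, at 25.05, 26.01 and 5.81, with *Angpt1*ΔNC below both controls (log2 fold change -2.46 ± 0.29, edgeR adjusted p = 0.307, DESeq2 adjusted p = 2.95e-09). Without the filter on low counts edgeR called *Krt12* (adjusted p = 2.16e-09) and *Krt75* (1.11, 0.00492).

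The conjunctival keratins of label 3 had log2 fold changes of -0.47 ± 0.25 (*Krt13*), 0.53 ± 0.28 (*Krt4*) and 0.25 ± 0.25 (*Krt19*). Those of the stress keratins were 0.59 ± 0.33 (*Krt6a*), 0.297 ± 0.26 (*Krt6b*), 0.58 ± 0.33 (*Krt16*) and -0.14 ± 0.29 (*Krt17*). None of these passed. The controls themselves differed in label 3, with the 6 conjunctival markers at 39.3 and 24.5 and *Krt18* at 1.03 and 4.88. The 6 corneal markers, all with UMIs, made up 48.1, 41.6 and 20, led by *Krt12* in the controls and *Aldh3a1* in *Angpt1*ΔNC, where the sum was lowest. The 6 stroma markers made up 0.4905, 0.408 and 4.06, led by *Dcn* in each library, with *Kera* at 0 in control replicate 1, and the dissociation stress genes 50.4, 37.4 and 28.3, all 12 with UMIs. Their part in the result was not tested.

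**Figure D2:**
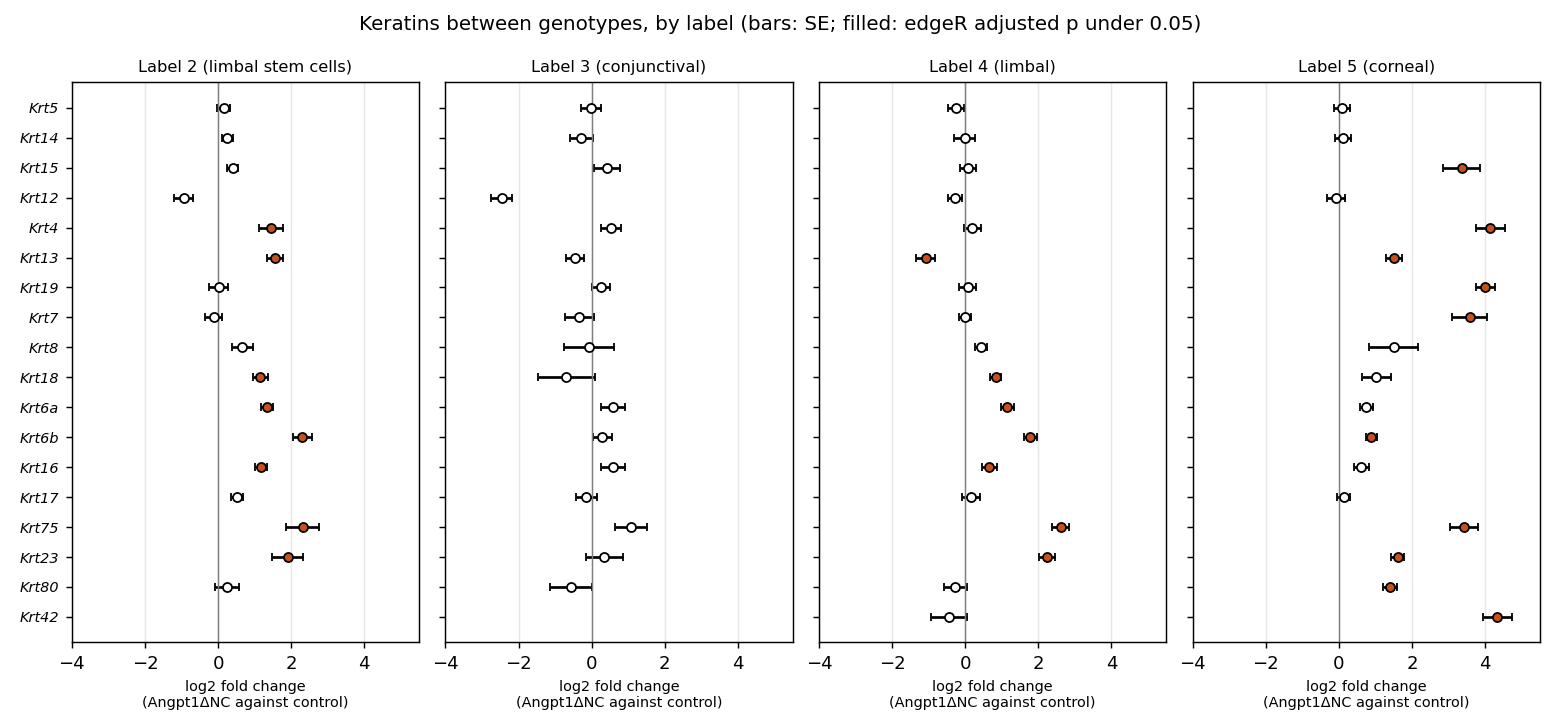
Log2 fold change of *Angpt1*ΔNC against control for named keratins in labels 2 to 5, from summed UMIs of 2 control libraries against 1. Bars are the SE, computed as the absolute log2 fold change divided by the square root of the edgeR F statistic. Filled points passed an edgeR adjusted p of 0.05, 8 in label 2, none in label 3, 7 in label 4 and 10 in label 5; genes with too few UMIs for the test have no point.

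Side by side, 13 keratins passed in at least 1 label, where 2.18%, 0%, 11.9% and 2.23% of all genes passed in labels 2, 3, 4 and 5. How often other genes passed in more than 1 label was not counted. Shared and single calls are therefore listed and not read as a trait of keratins. *Krt6b*, *Krt75* and *Krt23* rose in labels 2, 4 and 5, with log2 fold changes of 2.31, 1.78 and 0.89 for *Krt6b*, 2.32, 2.62 and 3.42 for *Krt75* and 1.901, 2.23 and 1.61 for *Krt23*. In male-typed cells these 3 passed together only in label 4, as *Krt75* did not pass in labels 2 and 5, *Krt23* in label 2 and *Krt6b* in label 5. *Krt13* passed in the same 3 labels in all cells, rising in labels 2 and 5 and falling in label 4. *Krt6a*, *Krt16* and *Krt18* rose in labels 2 and 4 and *Krt4* in labels 2 and 5, while *Krt15*, *Krt19*, *Krt7*, *Krt80* and *Krt42* passed in label 5 alone. *Krt42* was tested only in labels 4 and 5, as it had too few UMIs in labels 2 and 3. In label 5 it passed the filter only through *Angpt1*ΔNC. The labels share their 3 libraries, and differences between labels were not tested.

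Genes that anchor keratin filaments were compared as well, and the counts that passed are to be read beside the shares of all genes called, 2.18% in label 2, 0% in label 3, 11.9% in label 4 and 2.23% in label 5. Of the 13 desmosome genes 0 of 12 tested passed in label 2, 0 of 13 in labels 3 and 5, and 3 of 12 in label 4, where *Jup* (log2 fold change 0.62 ± 0.16, edgeR adjusted p = 0.00251) and *Dsg2* (0.76 ± 0.21, edgeR adjusted p = 0.0057) rose and *Dsc3* (-0.79 ± 0.17, edgeR adjusted p = 0.000145) fell. None of the 6 hemidesmosome genes passed in any label. Of 12 epithelial transcription factors 4 passed in label 4, *Grhl3* (1.68) and *Grhl1* (0.67) higher and *Ovol2* (-1.34) and *Tfap2c* (-0.57) lower, and none in the other labels. Of the cornified envelope genes *Sprr1a* rose in label 2 (1.21). Among the dissociation stress genes *Atf3* fell in label 2 (-1.07) and *Fos* in label 5 (-1.59). In label 4 *Jun* (-0.68), *Ier2* (-0.53), *Ier3* (-1.23) and *Dusp1* (-1.13) fell and *Hspa1a* (0.52) rose, while *Krt6a*, *Krt6b* and *Krt16* rose there. Of the corneal markers *Tkt*, *Aldh3a1* and *Upk1b* fell in label 4 (-0.49, -0.65 and -1.45). The limbal marker *Ifitm1* rose in labels 2, 4 and 5 (1.47, 0.75 and 1.26) and *Cxcl14* fell in label 4 (-1.405). Beside *Krt13*, of the conjunctival markers *Aqp5* fell (-2.99) and *Agr2*, also a goblet cell marker, rose (0.77) in label 4. Of the stroma markers, whose sum was lowest in *Angpt1*ΔNC in label 2, *Col3a1* rose there (1.95), of the cell cycle genes *Birc5* fell in label 4 (-1.69), and of the pigmented cell markers *Ttr* fell in labels 2, 4 and 5 (-4.91, -4.25 and -2.49) and *Rgr* in label 4 (-4.597). No endothelial or immune marker passed in any label.

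Promoter windows of RefSeq (GRCm38.p6, from 250 bases before to 50 after the start) matched 36 of the 53 keratins with 37 windows, and 10 of the 19 named. No window was matched for *Krt15*, *Krt16*, *Krt17*, *Krt19*, *Krt4*, *Krt6a*, *Krt6b*, *Krt80* and *Krt83*. The TATA-like motif ATAAANG (N any base), chosen after the sequences were seen, was found on the gene's strand in 20 of the 37 windows (54.1%), against 7.78% of all 32851 promoters. Counted on both strands it was in 20 of 37 and in 12.98% of all promoters. In 16 of the 20 windows its first base lay 25 to 39 bases before the start. The motif TGANTCA, which reads the same on both strands, was found in 2 windows, both of *Krt13*, and in 7.81% of all promoters. The 250 bases before the start are shown for 4 members, so that the same element can be seen at nearly the same place in a basal, a corneal, a conjunctival and a follicle keratin. Capitals mark ATAAANG, which begins 29 bases before the start in *Krt5*, 28 in *Krt12*, 29 in *Krt13* and 32 in *Krt75*. All lie on the minus strand, at chr15:101712906-101713155 (*Krt5*), chr11:99422260-99422509 (*Krt12*), chr11:100121567-100121816 (*Krt13*, the first of 2 windows, the second being without the motif) and chr15:101573905-101574154 (*Krt75*).
Krt5: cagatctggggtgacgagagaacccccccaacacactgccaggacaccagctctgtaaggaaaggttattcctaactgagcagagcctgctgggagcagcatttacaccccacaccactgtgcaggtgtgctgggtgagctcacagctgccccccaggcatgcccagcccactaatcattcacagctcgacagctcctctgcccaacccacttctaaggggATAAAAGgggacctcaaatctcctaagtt
Krt12: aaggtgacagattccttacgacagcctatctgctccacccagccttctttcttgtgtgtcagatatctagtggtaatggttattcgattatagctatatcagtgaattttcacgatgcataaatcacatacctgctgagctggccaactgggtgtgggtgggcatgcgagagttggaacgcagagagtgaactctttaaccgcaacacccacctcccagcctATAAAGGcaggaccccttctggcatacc
Krt13: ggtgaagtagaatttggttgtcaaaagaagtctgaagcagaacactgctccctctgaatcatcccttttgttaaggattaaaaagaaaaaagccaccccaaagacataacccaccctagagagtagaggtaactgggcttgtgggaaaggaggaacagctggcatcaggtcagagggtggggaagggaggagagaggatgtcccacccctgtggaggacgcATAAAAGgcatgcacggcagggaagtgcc
Krt75: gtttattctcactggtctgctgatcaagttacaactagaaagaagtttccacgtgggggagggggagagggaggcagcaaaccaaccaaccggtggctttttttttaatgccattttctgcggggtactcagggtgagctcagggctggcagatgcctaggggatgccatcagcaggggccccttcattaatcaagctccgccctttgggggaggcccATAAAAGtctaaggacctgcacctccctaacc
A match is a description of the letters, and nothing was measured at these sites.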

How the data were processed

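The authors made the deposited values, raw UMI counts of 31053 genes per called cell, with Cell Ranger (build mm10), without normalization. The submitters' processing notes give version 2.1.1, while the matrix headers and the paper's reporting summary both name a later one. They also deposited a cluster label for each cell kept after quality control, doublet removal and integration with Seurat 3.1.3. Only these labels and cells were used, and the integrated values beside them were not. Called cells that were left out (2179, 2465 and 1842) had keratin shares of 0.661%, 0.559% and 0.42% of their UMIs, against 1.09%, 0.836% and 1.27% in kept cells.

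UMIs were summed per label and library and tested with edgeR 4.0.16 (genes filtered by filterByExpr, scaled by TMM, quasi-likelihood F-test, p adjusted by Benjamini-Hochberg over all genes tested in the label, threshold 0.05), 2 control libraries against 1, in R 4.3.3. With 1 residual degree of freedom, the fit takes the lone *Angpt1*ΔNC library to vary like the controls. It also shares the estimate of spread over the genes of a label. In label 4 the p-values follow a normal curve for the fold change over its SE, so they hold little or no measure of each gene's own spread. Each SE given after ± is the absolute log2 fold change divided by the square root of the edgeR F statistic. Alternatives were DESeq2 1.42.0, RLE factors, library sizes without keratin UMIs, no filter on low counts, equal cells per library, male-typed cells, leaving out each control (fold changes only) and, added after seeing the data, cells with at least 1% keratin UMIs. Keratins were named if they had at least 1 UMI per 10,000 in all 3 libraries in 1 label, in labels 2 to 5 or elsewhere, or passed the test. Beside them at most 4 genes of a list were named for a label unless they passed. Other work used Python 3.11.15, numpy 2.4.6, pandas 2.3.3, scipy 1.17.1 and matplotlib 3.10.9. The members and lists were chosen with earlier results of these data known. Other experiments of the study were not analysed here.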

Additional observations from a re-analysis of the deposited data

Results flagged for a closer look

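*Krt13* differed in direction between labels under the same comparison of genotypes. Its log2 fold change was 1.56 in label 2 and -1.09 in label 4, a difference of 2.64, and 1.504 in label 5, a difference of -2.59 for label 4 minus label 5. In labels 2 and 5 the level of *Angpt1*ΔNC was above both controls and in label 4 below both. The difference between labels was not tested, and the 3 labels share their libraries. In male-typed cells *Krt13* was at -0.47 in label 2, -1.54 in label 4 and 1.67 in label 5. The fall in label 4 did not pass with DESeq2 (adjusted p = 0.443), nor in edgeR with equal cells (0.126) or without the filter on low counts (0.457), and the rise in label 5 did not pass in edgeR with equal cells (0.175).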

How the results depend on the processing

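Of the values of the 25 called fold changes under the alternatives, 176 had the same direction and, where an adjusted p was given, passed as well (without a control, and for *Krt23* and *Krt75* of label 2 in DESeq2, only the fold change was compared), 26 no longer passed, 22 moved by more than 1 SE when a control was left out and 1 turned, *Krt13* in label 2 in male-typed cells (-0.47). For the named keratins that were tested and not called, 15 values passed the threshold. RLE factors, and library sizes without keratin UMIs, ended no call. The number of keratins called was 5 in label 2 with DESeq2 and 4 in male-typed cells (8 in the comparison as reported), 1 with DESeq2 and 2 without the filter in label 3 (0), 0 without the filter and 4 with equal cells in label 4 (7), and 5 in male-typed cells in label 5 (10). It was higher without the filter in label 2 (11, beside 3.45% of all genes) and label 5 (14, beside 7.06%). In male-typed cells it was higher in label 4 (8, beside 8.96%). In cells with at least 1% keratin UMIs it was 9 in label 2, beside 4.33% of all genes. For the 0 of edgeR without the filter in label 4, 8 keratins had an unadjusted p under 0.05 and DESeq2 called 5. The cause of these differences was not tested. Among all genes, the calls of label 2 (182) were 69 with DESeq2, 505 without the filter and 348 in cells with at least 1% keratin UMIs. Those of label 3 (0) were 26 with DESeq2, 399 without the filter, 3 with equal cells, 5 in male-typed cells and 11 in cells with at least 1% keratin UMIs. Those of label 4 (1257) were 201, 0 and 482 with DESeq2, without the filter (DESeq2 201) and with equal cells, and 803 in cells with at least 1% keratin UMIs, and those of label 5 (253) were 1209 without the filter.

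Without control replicate 1 or 2 the called fold changes lay between -1.11 and 4.89, in the reported direction in 50 of 50 values. The direction could hardly turn, since *Angpt1*ΔNC lay outside both controls for every call. The same *Angpt1*ΔNC library is in all of these values, so they say nothing of its own spread. No paired analysis was possible because *Angpt1*ΔNC has a single library. With blood endothelium (EC_2 to EC_4) in place of immune cells, the background share of keratin UMIs, as the mean of the controls, was 0.00856%.

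The single *Angpt1*ΔNC library limits every genotype result, as animal, dissection and genotype cannot be told apart, and in comparisons of all cells sex cannot either. With 41 to 192 cells a library in labels 2 and 3, keratins under 1 UMI per 10,000 rest on few UMIs.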
